A study of Mus musculus with 6 samples.

Results

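The genes described here serve the ISG15 conjugation system and the sensing of nucleic acids in the cytosol. They were read in mouse bone marrow-derived macrophages labelled wild type (WT) or Setd2 knockout (KO). They are 10 of the 17904 named genes in the expression table, chosen by symbol and read in all 6 libraries. The ISG15 system is represented by 5 genes, Isg15, Usp18, Herc6, Uba7 and Ube2l6, and the sensors with their adaptor by 5 others, Ddx58, Ifih1, Dhx58, Zbp1 and Mavs. All 10 were in the table, and all 10 reached 1 FPKM in every library, FPKM being fragments mapped to a transcript, divided by its length and by the library's total.

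The macrophages were grown from marrow of C57BL/6 mice aged 8 weeks, cultured for 5 days with the growth factor M-CSF. Each genotype, WT or Setd2-KO, was collected at 0 h and after 12 and 24 h with 100 ng/ml of LPS, the bacterial lipid that macrophages recognise through Tlr4. Each of these 6 groups held 1 library, so differences between groups have no replicates behind them and were not tested. There was no library without LPS at 12 or 24 h, so LPS and time in culture cannot be told apart. The labels do not describe the Setd2 allele, what drives its deletion, or whether libraries share an animal or a culture.

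ISG15 is a small protein related to ubiquitin that interferon-treated cells attach to other proteins. Uba7 encodes the enzyme that activates it, Ube2l6 the enzyme that carries it, Herc6 the main mouse ligase that places it on targets, and Usp18 the protease that takes it off again and also dampens signalling from the type I interferon receptor. Ddx58 (RIG-I) and Ifih1 (MDA5) encode RNA helicases that recognise viral RNA, and Dhx58 (LGP2) a relative that lacks their signalling domains and tunes them. Both helicases signal through Mavs, a protein of the outer mitochondrial membrane. Zbp1 binds left-handed nucleic acids and can trigger cell death. In macrophages LPS induces interferon-β, and most of these genes are classed as interferon-stimulated.

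The base sequence around the start site was not used in choosing the genes, though most of them are classed as interferon-stimulated. RefSeq promoter windows of GRCm38.p6, reaching from 250 bases before the start to 50 after it, matched 7 of the 10 genes; Usp18, Dhx58 and Zbp1 had no entry. The windows were searched on both strands for the core of the interferon-stimulated response element, written as 2 copies of GAAA with any 2 bases between them. It was found in 3 of the 7, Isg15, Ddx58 and Ifih1, and in 3.99% of 27025 genes with a window. It was not found in the windows of Herc6, Uba7, Ube2l6 and Mavs. An interferon-γ activated site, TTCNNNGAA, and a κB site, GGGA and TTCC with any 2 bases between them, also searched on both strands, were in none of the 7 windows and in 9.55% and 1.63% of genes. The sequences printed here show Isg15, the most strongly induced gene of its group in WT, and Mavs, which changed least, over the 250 bases before the start, and 30 bases around the match in Ddx58 and Ifih1. Capitals mark matches to the response element or its reverse complement. They lie at chr4:156200819-156201068 (minus strand) for Isg15, chr4:40239804-40239833 (minus strand) for Ddx58, chr2:62646206-62646235 (minus strand) for Ifih1 and chr2:131233813-131234062 (plus strand) for Mavs.
Isg15: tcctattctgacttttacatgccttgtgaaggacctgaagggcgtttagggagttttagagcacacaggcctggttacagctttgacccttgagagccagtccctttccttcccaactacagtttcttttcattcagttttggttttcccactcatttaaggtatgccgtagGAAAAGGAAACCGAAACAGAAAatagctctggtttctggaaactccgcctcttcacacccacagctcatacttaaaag
Ddx58: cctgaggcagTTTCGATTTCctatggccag
Ifih1: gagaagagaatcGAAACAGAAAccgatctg
Mavs: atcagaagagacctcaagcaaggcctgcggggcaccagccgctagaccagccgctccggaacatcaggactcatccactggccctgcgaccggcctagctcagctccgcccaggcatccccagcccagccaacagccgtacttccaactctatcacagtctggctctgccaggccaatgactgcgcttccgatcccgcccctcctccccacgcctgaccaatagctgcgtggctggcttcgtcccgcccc
Isg15 held 3 overlapping matches, which begin 78, 72 and 66 bases before the start. The match in Ddx58 is on the opposite strand and begins 3 bases after the start, counting the start as the first base, and that in Ifih1 begins 33 bases after it. A match describes the letters in the window only.

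Depth is not recorded in the table. An estimate from the spacing of weak values, which assumes reads of 50 nt, put the libraries at 21860000 to 22640000 reads each. By this estimate 75 to 18661 reads stood behind each value of the 10 genes, and the counting error of a log2 difference between 2 libraries had a standard error of 0.015 to 0.13. These errors cover counting only. Setd2 itself was at 7.83, 8.68 and 7.51 FPKM in the WT libraries at 0, 12 and 24 h and at 9.96, 9.16 and 5.11 in those labelled KO, so its gene-level value does not check the labels and every direction given here rests on them. Macrophage markers other than Lyz2 (Adgre1, Cd68, Csf1r, Itgam, Fcgr1, Cd14 and Mertk, 7 of 7 present in all libraries) summed to 2406 to 4492 FPKM. The sums in WT and KO were 2454 and 2406 at 0 h, 4046 and 3259 at 12 h, and 4492 and 3643 at 24 h. At 24 h Itgam (-1.24), Mertk (-1.01), Csf1r (-0.89) and Adgre1 (-0.81) were lower in KO by log2 difference. Fcgr1 (0.55), Cd14 (0.12) and Cd68 (0.11) were higher. Lyz2, another macrophage marker, was at 5502 FPKM in the WT and 17.7 in the KO library at 0 h. Markers of T, B and NK cells, of which 2, 3 and 3 were in the table, each summed to at most 0.26 FPKM. Those of mast cells and basophils summed to at most 0.96 FPKM, of erythroid cells to 0.65, of conventional dendritic cells to 2.42 and of fibroblasts to 6.57. Of 4 plasmacytoid dendritic cell markers, Siglech and Ccr9 stayed at or below 0.71 FPKM. Tcf4 was at 7.64 to 9.59 FPKM, and Irf8, which macrophages also express, reached 104. Neutrophil markers (5 genes) summed to 36.7 to 80.5 FPKM, and to 74.9 in WT and 41.6 in KO at 0 h. The part of these differences in the results was not tested.

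Differences between libraries also followed transcript length across the genome. Over 5571 genes averaging 10 FPKM or more, the KO minus WT difference at 0 h had a Spearman rho of 0.61 with length, and the difference at 24 h one of -0.41; genes are not independent replicates, so these describe pairs of libraries. The 10 genes span 756 nt (Isg15) to 4767 nt (Herc6), so values with that trend removed are given beside many of the comparisons.

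Before LPS, 8 of the 10 genes were at least 2-fold higher in the library labelled KO than in WT and none was 2-fold lower. A gene was called here when its difference in log2(FPKM + 1) was 1 or more in size, and 2.96% of 11547 measured genes were called higher and 1.26% lower at 0 h. The effector Isg15, its protease Usp18, the helicases and Zbp1 had the largest differences, the enzymes of the conjugation cascade were near the 2-fold line, and Mavs was level. In bulk RNA fewer cells of a type and less RNA per cell cannot be told apart, so a higher level may belong to all cells or to some.

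Within the ISG15 system, Isg15 (gene ID 100038882; GRCm38 chromosome 4, 156199424 to 156200818) had a level of 9.86 FPKM in the WT library at 0 h, against 58.6 in the KO library. The levels of Usp18 (gene ID 24110; chromosome 6, 121245906 to 121270917) were 2.85 and 26.9 FPKM. The log2 differences were 2.46 for Isg15, the value ranked 20 from the top among all measured genes, and 2.86 for Usp18, ranked 8. The other 3 enzymes moved less. Ube2l6 (gene ID 56791; chromosome 2, 84798828 to 84810003) differed between 30.01 FPKM in WT and 62.6 in KO, a difference of 1.04. For Herc6 (gene ID 67138; chromosome 6, 57580992 to 57665136) the levels were 3 and 7.13 FPKM, with a difference of 1.02. Uba7 (gene ID 74153; chromosome 9, 107975567 to 107984056), at 14.6 and 29.0 FPKM, was just short of the call with 0.95. These 3 lie within counting error of the threshold: the 95% counting interval was 0.93 to 1.14 for Ube2l6, 0.87 to 1.17 for Herc6 and 0.84 to 1.05 for Uba7. With the length trend removed, Herc6 was at 0.80 and no longer called, Uba7 at 0.84, and Ube2l6 at 1.25. Trimmed-mean scaling left Herc6 at 0.95 and Ube2l6 at 0.98, both short of the call.

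Among the sensors, Zbp1 (gene ID 58203; chromosome 2, 173206612 to 173218959) measured 2.56 FPKM in the WT library and 23.7 in the KO library, a difference of 2.79. Ddx58 (gene ID 230073; chromosome 4, 40203777 to 40239825) measured 4.14 and 23.9 FPKM, a difference of 2.28. Dhx58 (gene ID 80861; chromosome 11, 100694884 to 100704271) stood at 9.91 and 37.7 FPKM and differed by 1.83. Ifih1 (gene ID 71586; chromosome 2, 62595618 to 62646255) stood at 3.41 and 12.7 FPKM and differed by 1.63. These 4 sensors were called, and these 4 were also called with the length trend removed, at 3.02, 2.10, 1.84 and 1.41. Mavs (gene ID 228607; chromosome 2, 131234063 to 131248025), the shared adaptor of the RNA helicases, measured 15.9 FPKM in WT and 17.1 in KO, a difference of 0.09 with a 95% counting interval of -0.02 to 0.21.

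The median difference at 0 h was 1.04 over the ISG15 system and 1.83 over the sensors with Mavs, against 0.02 over all measured genes. Without the length trend the medians were 1.25 and 1.84. As deposited the 2 groups overlap: Isg15 lies among the sensors, Usp18 lies above all 5 of them, and Mavs lies under all 5 ISG15 genes. With the length trend removed Usp18 (2.98) lies just under Zbp1 (3.02).

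**Figure D1:**
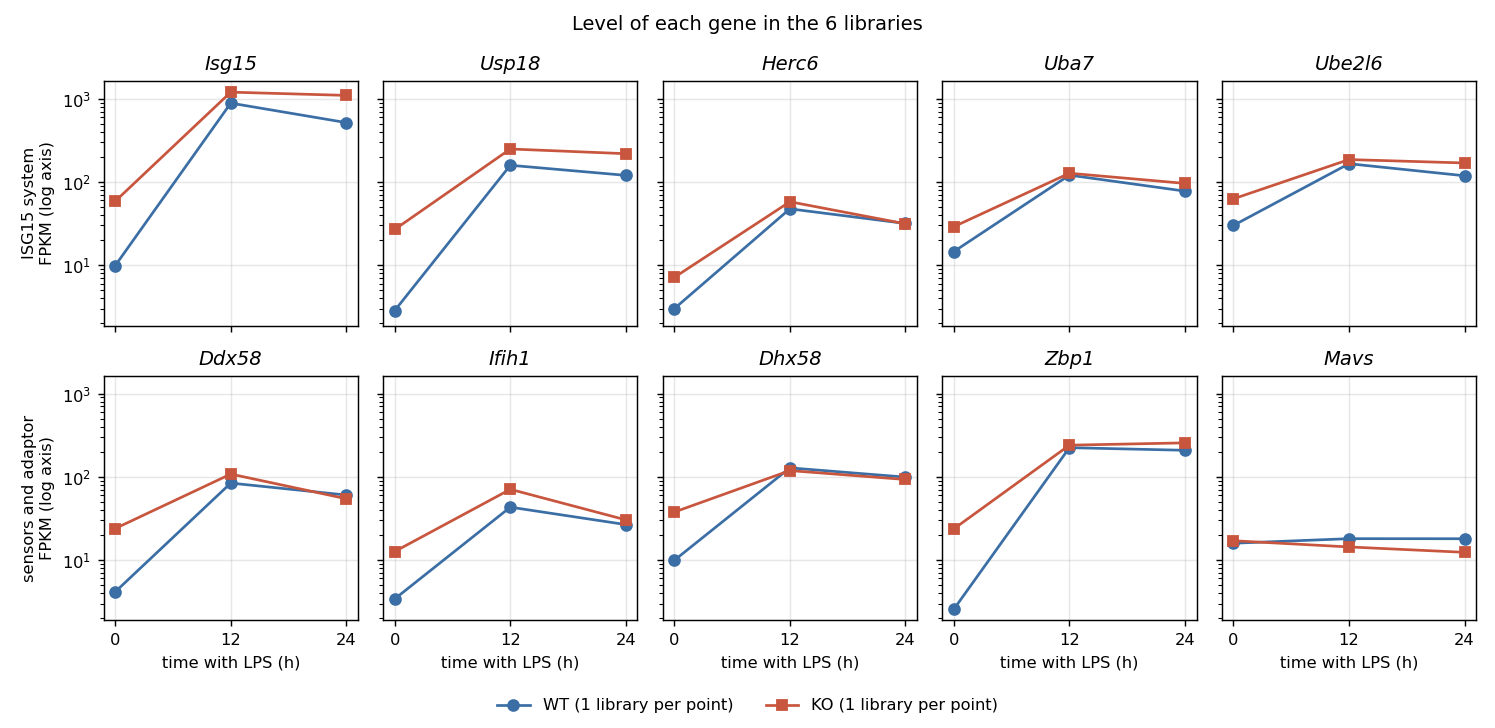
Level of each of the 10 genes (FPKM, log axis) at 0, 12 and 24 h with LPS, with 1 library per point, circles for WT and squares for KO; the upper row holds the ISG15 system and the lower row the sensors with Mavs. At 0 h the KO point is above the WT point for 9 genes by a clear gap and level for Mavs (15.9 and 17.1 FPKM), and at 12 h all 10 pairs differ by less than 2-fold, with Ifih1 (43.2 and 70.8 FPKM) the farthest apart.

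With LPS, 9 of the 10 genes were at least 2-fold higher at 12 and at 24 h than at 0 h in both genotypes, all except Mavs. The ISG15 transcript and Zbp1 gained most in WT, and the enzymes Uba7 and Ube2l6 least of the 9. Of all measured genes, 9.64% were called higher and 17.4% lower at 12 h in WT, and 8.63% and 17.5% in KO. At 24 h the shares called higher were 7.65% in WT and 7.55% in KO, with 13.9% and 21.6% lower. These shares depend on scaling, since median-of-ratios factors turned the 12 h split to 12.8% higher and 11.1% lower in WT and to 12.1% and 9.74% in KO. At 24 h the split was then 10% higher and 9.08% lower in WT and 13.1% and 11.8% in KO. The same factors moved the median of 7678 genes averaging 5 FPKM or more by 0.29 in WT and 0.38 in KO at 12 h, and by 0.29 and 0.45 at 24 h.

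In WT, Isg15 went from 9.86 FPKM at 0 h to 885.8 at 12 h and 516 at 24 h. This was the largest response of the 10 genes at 12 h, 6.35 on the log2 scale. Usp18 went from 2.85 to 158.7 and 120.0 FPKM, a 12 h response of 5.37. Herc6 (3, 47.6 and 31.7 FPKM) responded by 3.60, Uba7 (14.6, 121 and 77.6 FPKM) by 2.97 and Ube2l6 (30.01, 166 and 119 FPKM) by 2.43. Isg15 ranked 5 of the 10 in FPKM, a scale corrected for transcript length, in WT at 0 h, and first in every library with LPS. Relative to Ube2l6, the level of Isg15 was 0.33 in WT at 0 h, 5.35 at 12 h and 4.35 at 24 h, so the modifier passed its carrier enzyme in transcript level.

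Zbp1, the lowest of the 10 genes in WT at 0 h with 2.56 FPKM, reached 224 at 12 h and 208 at 24 h, a 12 h response of 5.98. Ddx58 went from 4.14 to 84.0 and 60.3 FPKM, a response of 4.05. The 2 other helicase genes followed. Dhx58 (9.91, 128 and 99.1 FPKM) responded by 3.56 and Ifih1 (3.41, 43.2 and 26.6 FPKM) by 3.32. Mavs stayed between 15.9 and 18.1 FPKM in WT. It was the second highest of the 10 genes in WT at 0 h and the lowest in every library with LPS. Each helicase was below Mavs in WT before LPS, with Ddx58 at 0.26 and Ifih1 at 0.21 of its level. At 12 h they were at 4.66 and 2.39 times its level. In the KO library at 0 h the same ratios were 1.40 for Ddx58 and 0.74 for Ifih1.

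In the libraries labelled KO the levels after LPS were reached from a higher start, and the responses were smaller as log2 differences. A log2 difference shrinks as its start rises. The 12 h FPKM itself was higher in KO than in WT for all of these genes but Dhx58 and Mavs. Isg15 went from 58.6 FPKM to 1199.7 at 12 h and 1097 at 24 h, a 12 h response of 4.33. Zbp1 went from 23.7 to 239.85 and 256 FPKM, a response of 3.29, and Usp18 from 26.9 to 249.04 and 219 FPKM, a response of 3.16. These 3 genes again had the largest responses. Herc6 (7.13, 57.9 and 31.4 FPKM) responded by 2.86, Ifih1 (12.7, 70.8 and 30.3 FPKM) by 2.39 and Ddx58 (23.9, 108 and 54.4 FPKM) by 2.13. Uba7 (29.0, 127 and 96.0 FPKM) responded by 2.10, Dhx58 (37.7, 119 and 92.8 FPKM) by 1.63 and Ube2l6 (62.6, 186 and 169 FPKM) by 1.55. The order of the responses differed from that in WT, with Dhx58 now below Uba7. Mavs was at 17.1, 14.4 and 12.4 FPKM. Its responses in KO were -0.23 at 12 h and -0.43 at 24 h as deposited, and median-of-ratios scaling turned both positive, to 0.15 and 0.02.

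The difference between the 2 responses, KO minus WT, was called lower for 5 of the 10 genes at 12 h and for 7 at 24 h, and higher for none. Of all measured genes, 3.14% were called lower and 1.65% higher at 12 h, and 8.63% and 4.04% at 24 h. Median-of-ratios scaling turned the 24 h split to 6.18% lower and 6.51% higher and moved the median of the 7678 genes averaging 5 FPKM or more by 0.16. This difference was not tested, and each such value uses the 0 h libraries in which these genes already differed. At 12 h the called genes were Zbp1 (-2.69), Usp18 (-2.21), Isg15 (-2.02), Dhx58 (-1.93) and Ddx58 (-1.92). At 24 h they were joined by Ifih1 (-1.45) and Herc6 (-1.04). Herc6 at 24 h was not called with the length trend removed (-0.58) or with median-of-ratios scaling (-0.84). Removing the trend left Ifih1 at -1.0, moved Isg15 at 24 h from -1.37 to -2.12, and made Ube2l6 a call at 12 h, from -0.87 to -1.05.

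**Figure D2:**
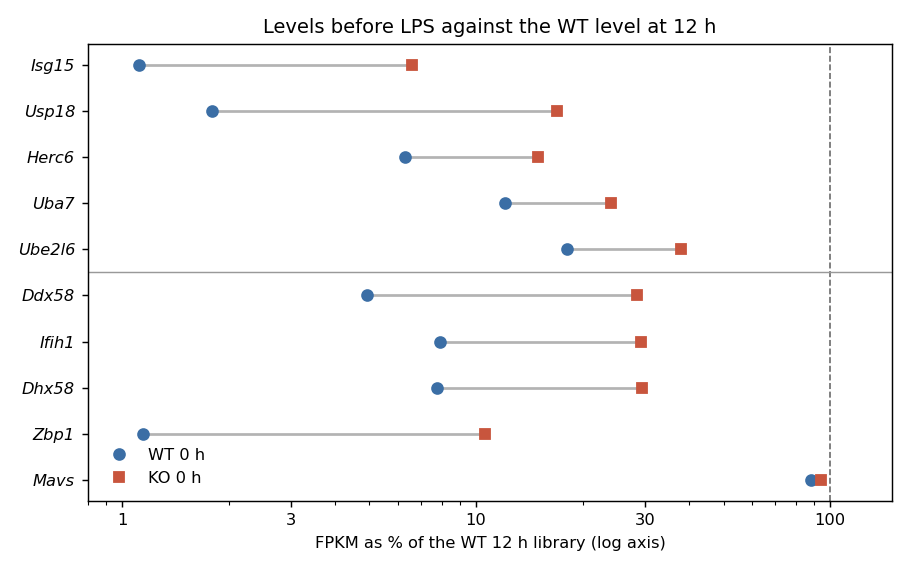
FPKM of each gene at 0 h as a percent of its FPKM in the WT 12 h library (log axis; dashed line: 100%), circles for WT and squares for KO, 1 library each. In KO at 0 h Ddx58, Ifih1 and Dhx58 stand at 28.4 to 29.4% of the WT 12 h level, Isg15 at 6.61% and Mavs at 94.5%.

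The genes differed in how far the KO library at 0 h stood toward the level that WT reached with LPS. On the linear scale Isg15 in KO at 0 h was at 6.61% of its WT 12 h level, where WT at 0 h was at 1.11%. Zbp1 was at 10.6% (WT 1.14%), Herc6 at 15.0% (WT 6.31%) and Usp18 at 16.9% (WT 1.80%). The 3 RNA helicase genes lay close to each other, with Ddx58 at 28.4% (WT 4.93%), Ifih1 at 29.3% (WT 7.90%) and Dhx58 at 29.4% (WT 7.74%). Uba7 was at 24.0% (WT 12.1%) and Ube2l6 at 37.8% (WT 18.1%). Every induced gene was thus well below its stimulated level in the KO library before LPS.

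At 12 h none of the 10 genes was called in KO against WT, where 1.32% of all measured genes were called higher and 0.727% lower. Ifih1 (43.2 FPKM in WT and 70.8 in KO) had the largest difference, 0.70, and Usp18 (158.7 and 249.04 FPKM) the next, 0.65. Ifih1 and Usp18 encode a sensor and a protease, one from each group. Isg15 differed by 0.44, Ddx58 by 0.36 and Herc6 by 0.28. Ube2l6 (0.17), Zbp1 (0.10) and Uba7 (0.08) were close to level, and Dhx58 (-0.11) and Mavs (-0.31) were lower in KO. Mavs had a 95% counting interval of -0.43 to -0.19. Medians were 0.28 for the ISG15 system and 0.10 for the sensors, against -0.06 over all measured genes.

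At 24 h Isg15 was the 1 gene of the 10 called higher in KO, and none was called lower; 2.22% of all measured genes were called higher and 1.93% lower, and 2.89% and 1.37% with median-of-ratios scaling, which moved the median of the 7678 genes averaging 5 FPKM or more by 0.14. Isg15 measured 516 FPKM in WT and 1097 in KO, a difference of 1.09, which was 0.85 and no longer called with the length trend removed. Usp18 (120.0 and 219 FPKM) differed by 0.86, and by 1.01, a call, with either median-of-ratios or trimmed-mean scaling. Ube2l6 differed by 0.51, Uba7 by 0.30 and Zbp1 by 0.29. Ifih1 was at 0.18. These 4 genes were thus higher in KO by less than 2-fold, in an order that depends on the length trend: with it removed Ifih1 was at 0.41, Uba7 at 0.40, Ube2l6 at 0.36 and Zbp1 at 0.13. Herc6 (-0.01), Ddx58 (-0.15) and Dhx58 (-0.09) were near level, and their sign flips with the processing: Herc6 was at 0.23 and Ddx58 at 0.03 with the length trend removed, and Dhx58 at 0.05 with median-of-ratios scaling. Mavs had the lowest value, -0.51, from 18.0 FPKM in WT and 12.4 in KO, and was at -0.46 with the trend removed and -0.37 with either scaling.

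**Figure D3:**
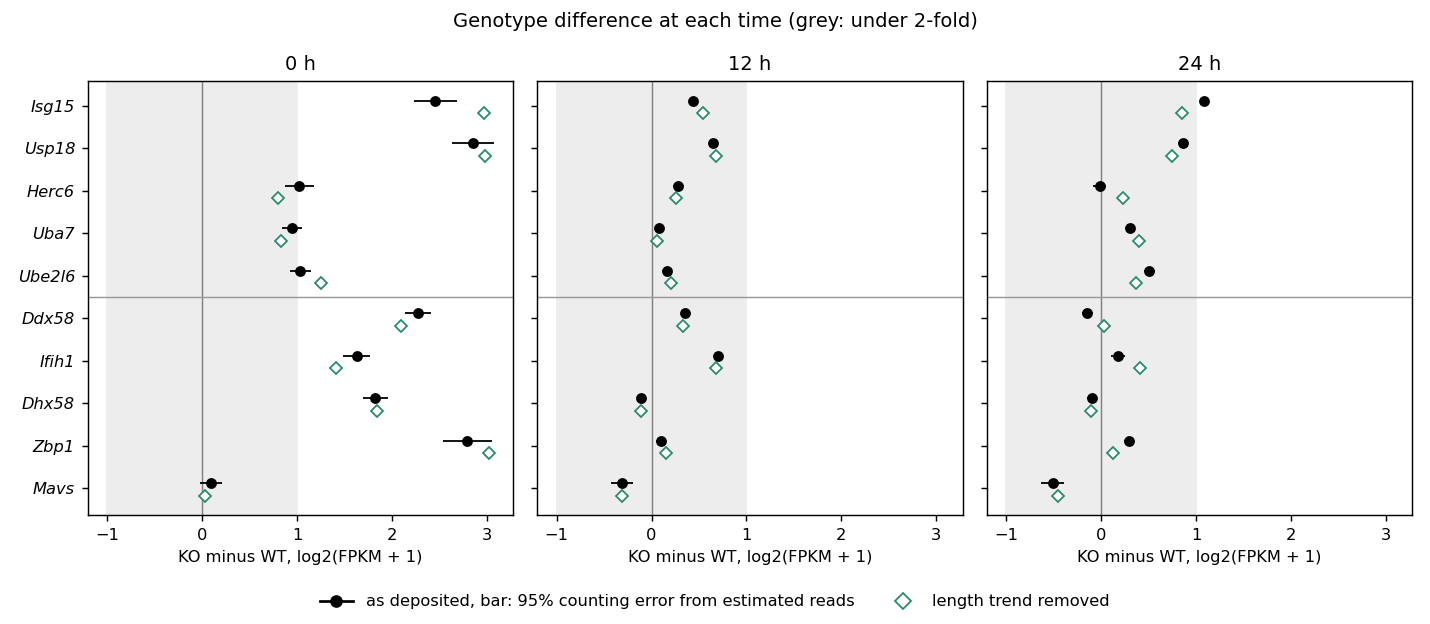
KO minus WT difference in log2(FPKM + 1) for each gene at 0, 12 and 24 h. Filled points are as deposited, with 95% intervals for counting error only, open diamonds are with the length trend removed, and grey marks differences under 2-fold. At 0 h 8 genes lie beyond the grey band as deposited, at 12 h none and at 24 h only Isg15 (1.09), whose diamond is inside the band.

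The 24 h order set the ISG15 system somewhat apart from the sensors. Its median was 0.51, against -0.09 for the sensors with Mavs and 0.04 for the 4 sensors without it, while all measured genes had a median of -0.12. With the length trend removed the medians were 0.40, 0.03 and 0.08. The ranges overlap, since Herc6 lies among the sensors, and with 5 genes on each side this describes 1 pair of libraries.

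Between 12 and 24 h most of these transcripts differed by less than 2-fold in both genotypes, and Ifih1 in KO was the 1 called lower, with none called higher. Of all measured genes, 3.79% were called lower and 1.82% higher in WT, and 7.67% and 4.78% in KO. In WT, Isg15 at 24 h was at 58.3% of its 12 h level, the smallest remaining share of the 10 genes, followed by Ifih1 at 61.7% and Uba7 at 64.2%. Zbp1 remained at 93.0% and Mavs at 99.8%. In KO, Isg15 remained at 91.4% and Ube2l6 at 91.0%, while Ifih1 was at 42.9%, Ddx58 at 50.5% and Herc6 at 54.3%. Zbp1 in KO was at 107% of its 12 h level, a difference of 0.09 that became -0.30 with the length trend removed.

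The spread in KO followed transcript length. Ifih1 (4543 nt), Ddx58 (3874 nt) and Herc6 (4767 nt), with the longest transcripts of the 10, had the most negative log2 differences between 12 and 24 h, at -1.19, -0.97 and -0.86. Isg15 (756 nt), Zbp1 (1379.5 nt) and Ube2l6 (1560 nt), with the shortest, were at -0.13, 0.09 and -0.14. Across 5571 genes the same comparison had a Spearman rho of -0.58 with length, with medians of 0.71 for 563 genes under 1000 nt and -0.46 for 1118 genes over 4000 nt. With the trend removed Ifih1 was at -0.78 and no longer called, Ddx58 at -0.63 and Herc6 at -0.42, while Isg15 was at -0.83 and became the gene with the most negative value of the 10. Ube2l6 moved from -0.14 to -0.44, Usp18 from -0.19 to -0.41 and Uba7 from -0.40 to -0.21. In WT, Isg15 went from -0.78 to -1.13 in the same step, which made it a call.

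**Figure D4:**
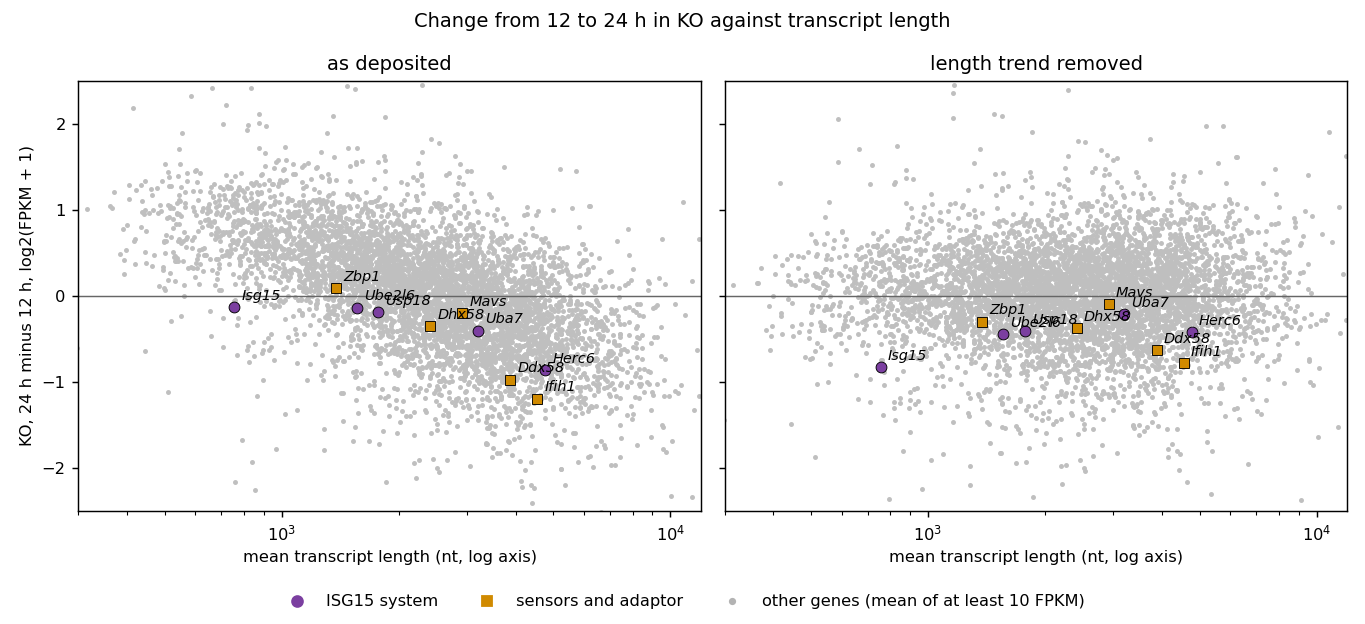
Difference in log2(FPKM + 1) between 24 and 12 h in KO against mean transcript length (log axis), as deposited (left) and with the length trend removed (right). Grey points are genes averaging 10 FPKM or more (48 of 5571 lie outside the axes), circles the ISG15 system and squares the sensors with Mavs. On the left the 10 genes slope down with the grey cloud, from Isg15 at -0.13 to Ifih1 at -1.19; on the right they lie between -0.83 and -0.10.

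Ratios within the system differed between libraries too. The level of Isg15 relative to Usp18, modifier to protease, was 3.46, 5.58 and 4.30 in WT at 0, 12 and 24 h and 2.18, 4.82 and 5.02 in KO. Relative to Uba7, Isg15 was at 0.68, 7.33 and 6.65 in WT and at 2.02, 9.42 and 11.4 in KO. Ddx58 relative to Ifih1 was at 1.21, 1.95 and 2.26 in WT and at 1.89, 1.52 and 1.79 in KO, so RIG-I transcripts were the more abundant of the pair in all 6 libraries. Dhx58 exceeded both, from 1.10 to 2.39 times Ddx58.

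The profile over the 6 libraries was compared with that of 8846 genes that reached 5 FPKM, by the root mean square distance of log2 values centred on each gene's mean. The 5 genes nearest to Isg15 were Ifit1 (distance 0.22), Oasl1 (0.28), Isg20 (0.30), Ifit3 (0.31) and Ifi44 (0.38), all classed as interferon-stimulated. Of the other 9 genes, Zbp1 ranked 7th (0.40) and Usp18 19th (0.49), whereas Ube2l6 ranked 311th (1.61). This distance counts the size of the changes as well as their shape. The Pearson correlation with Isg15, which ignores size, was 0.996 for Ube2l6, 0.993 for Usp18 and 0.991 for Zbp1. The 5 nearest to Ddx58 were Slfn5 (0.06), Stat2 (0.17), Gvin1 (0.21), Trim30d (0.22) and Slfn8 (0.22). Slfn5 measured 9.72, 180.45 and 119.8 FPKM in WT and at 54.7, 228 and 120.9 in KO, so it too had a gap at 0 h and none at 24 h. Dhx58 ranked 10th (0.28) and Ifih1 13th (0.29) from Ddx58. Likeness over 6 libraries is a description, and the profiles share the libraries and their depth.

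Most further genes of these pathways were not called at 0 h. Of all measured genes, 2.96% were called higher there, and their median difference was 0.02. The lists described next had medians of 0.11 to 0.68 as deposited. The other ligases and the proteases that can act on ISG15 (9 of 10 measured) had 0 called higher at 0 h, with a median of 0.35, and -0.02 with the length trend removed. Trim25, a ligase that also modifies RIG-I, had the largest difference there, 0.80, from 28.1 FPKM in WT to 49.8 in KO. With the length trend removed it was at 0.46. In WT it was higher by 1.43 at 12 h than at 0 h. Herc2 was called lower at 24 h (-1.06), and was at -0.71 with the trend removed. Among cofactors and regulators of the RNA helicases (13 of 14 measured, median 0.23, and 0.02 with the length trend removed), Ddx60, a helicase that promotes RIG-I signalling, was the 1 call at 0 h, at 0.79 FPKM in WT and 4.27 in KO (1.56).

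Of 12 genes that carry the signal from Mavs onward (median 0.41 at 0 h, and 0.17 with the length trend removed), Irf7, the transcription factor that amplifies interferon production, was the 1 called higher, at 18.7 FPKM in WT and 153 in KO (2.97). Tbk1 (0.28), the kinase that activates these factors, and Irf3 (-0.19) were not called at 0 h. Ikbke, a kinase related to Tbk1, went from 13.7 FPKM to 105 at 12 h in WT, a response of 2.84, and differed by 0.53 between genotypes at 0 h. None of the 12 was called in KO against WT at 12 or 24 h.

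Genes of cytosolic DNA sensing (11 measured) had a median of 0.11 at 0 h, and 1 was called higher. This was Ifi204, an interferon-inducible DNA-binding protein, at 18.9 FPKM in WT and 78.5 in KO (2.0). The DNA sensor Mb21d1 (cGAS) was at 0.62 and its partner Tmem173 (STING) at 0.09. Trex1, the exonuclease that degrades cytosolic DNA, was at 0.61, and at 1.01, a call, with the length trend removed. The 3 subunits of RNase H2, Rnaseh2a (-0.66), Rnaseh2b (-0.93) and Rnaseh2c (-0.86), were lower in KO but not called, and were at -0.57, -0.70 and -0.47 without the trend.

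Among 7 genes that act with Zbp1 in cell death (median 0.19), Mlkl, the membrane-permeabilising executor of necroptosis, and Adar, the RNA-editing enzyme that limits Zbp1 activation, were called higher at 0 h. Mlkl was at 9.48, 74.2 and 43.9 FPKM in WT and 22.9, 109.8 and 76.9 in KO, with differences of 1.19, 0.56 and 0.79. Adar was at 12.8 and 29.96 FPKM at 0 h (1.17), and at 0.87 with the length trend removed. Ripk3, the kinase that Zbp1 engages, was level (0.11). The 5 effectors and receptors of double-stranded RNA had a median of 0.68 at 0 h, and 0.50 with the length trend removed. Eif2ak2 (PKR) was called with Adar at 0 h (1.5). The endosomal receptor Tlr3 was the 1 call at 12 h (1.05), from 10.48 FPKM in WT to 22.8 in KO.

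Among genes of the interferon receptor and its factor ISGF3 (median 0.47 at 0 h, and 0.19 with the length trend removed), Stat2, a subunit of ISGF3, was called higher at 0 h. It measured 10.8 FPKM in WT and 41.4 in KO (1.84), while Irf9, which also belongs to ISGF3, was at 0.89 and not called. The receptor chains Ifnar1 (0.25) and Ifnar2 (-0.18) were not called, and neither they nor Stat2 and Irf9 were called at 12 or 24 h. Of 9 interferon genes looked up, 2 were in the table. Ifnb1, which encodes interferon-β, was listed at 0 in WT at 0 h and at 0.19 FPKM in KO. It reached 0.70 and 1.19 FPKM at 12 and 24 h in WT and 1.52 and 1.85 in KO. These Ifnb1 values lie below or near the minimum of 1 FPKM, no counting error is given for them, and their differences were not tested.

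**Figure D5:**
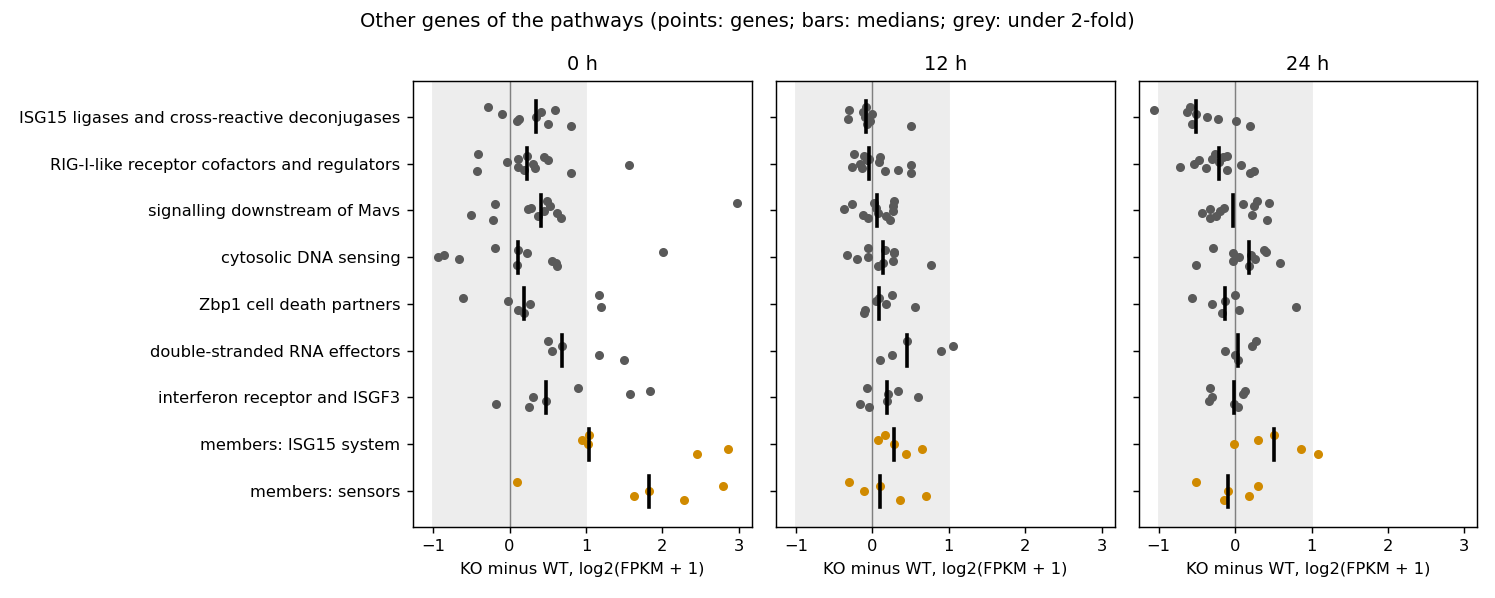
KO minus WT difference in log2(FPKM + 1) at 0, 12 and 24 h for measured genes of 7 related lists (grey points) and the 10 genes described here (orange), with black bars for medians and grey for differences under 2-fold. At 0 h the medians are 1.04 for the ISG15 system and 1.83 for the sensors, against 0.11 to 0.68 for the other lists; Trim25 and Adar are in 2 lists each.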

How the data were processed

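RNA was sequenced from 6 libraries of cultured macrophages on the BGISEQ-500 platform, per the labels' protocols. The authors deposited FPKM with 2 decimals, per the file headers. The submitters' processing notes name Bowtie2, RSEM and GRCm38, with no versions or settings, and whether counting used strand is not given in the sources used here. RSEM-type estimates divide reads among similar transcripts. Of the 10 genes, 5 (Isg15, Usp18, Herc6, Ifih1 and Dhx58) overlap a predicted RefSeq gene. None of these predicted genes is in the expression table, so any reads from them may have been counted to the 5.

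The table's 17904 named genes were used, and 2 cells that are not numbers were read as missing. A gene was measured if it reached 1 FPKM in a library (11549 genes). Differences of log2(FPKM + 1) understate changes of weak genes. Genes were called at 1 (2-fold), with no test, since each group held 1 library. Lengths came from GENCODE M21 for 11440 measured genes. The length trend of each library was a lowess curve (statsmodels 0.14.6, span 0.3). Depth was estimated from value steps of genes under 1 FPKM. The functions were tested on simulated data. Coordinates and promoters are RefSeq's for GRCm38.

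The 10 genes, the lists and the rule for naming genes were chosen with earlier results of these data known. All 10 genes are named; of each list, called genes or up to 4 with the largest difference, and others of known role picked after their values were seen; and the 5 profiles nearest to Isg15 and Ddx58. Alternatives were pseudocounts of 0.1 and 5, no minimum or 5 FPKM, median-of-ratios and trimmed-mean scaling, and the length trend removed. A result on 1 gene of the lists is not reported here.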

Additional observations from a re-analysis of the deposited data

Results flagged for a closer look

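For 4 genes the direction of a difference turned between genotypes or times; with 1 library a side, no such turn was tested. Ddx58 was higher in KO at 0 h (2.28) and at 12 h (0.36) and lower at 24 h (-0.15), changes in the genotype difference of -2.42 and -0.50; the 24 h value is 0.03 with the length trend removed. Dhx58 was higher in KO at 0 h (1.83) and slightly lower at 12 h (-0.11) and 24 h (-0.09), changes of -1.93 and -1.92; the 24 h value is 0.05 with median-of-ratios scaling. Zbp1 was lower at 24 than at 12 h in WT (-0.10) and higher in KO (0.09), a difference of 0.19, and both values are negative with the length trend removed, at -0.27 and -0.30. Mavs differed from 0 h by 0.17 at 12 h and 0.17 at 24 h in WT and by -0.23 and -0.43 in KO, differences of -0.40 and -0.60, and scaling turned the KO values positive.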

How the results depend on the processing

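No paired analysis was possible because each group holds 1 library and the groups share 1 replicate number. No library could be left out, as none has a replicate. Across 7 alternatives, 149 counts of called genes stayed within 1.5 times the count as reported and 5 did not. The settings with no minimum and with a minimum of 5 FPKM change only which genes are kept. All the genes described here pass either filter, so these settings could not move their counts or medians. Their unchanged values are included in the 149 counts and in the 151 medians given below, which therefore overstate the stability. For KO against WT at 24 h, the count called higher was 2 with median-of-ratios and 2 with trimmed-mean scaling (Usp18 added) and 0 with the length trend removed (Isg15 lost). Removing that trend also gave 1 gene called lower from 12 to 24 h in WT (Isg15 added) and 0 in KO (Ifih1 lost). At 0 h the count of 8 called higher ranged from 6 to 8. No called gene changed sign. Of the medians of the 2 gene groups 151 moved little and 3, with a pseudocount of 5, by over 1.5-fold: that of the ISG15 system in WT, to 2.72 at 12 h and 2.20 at 24 h, and that of the sensors' response difference at 12 h, to -1.32. Depth limits the 0 h values most, where 75 estimated reads stand behind Zbp1 in WT.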
